A study of Mus musculus with 4 samples.

Results

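The 9 genes described here encode the microglial receptor TREM2 and the proteins closest to it. They are Trem2, the adaptor genes Tyrobp and Hcst, the signalling genes Syk, Plcg2, Vav1 and Inpp5d, and the sheddase genes Adam10 and Adam17. They were taken by symbol, for their roles, from the 19737 genes of the deposited matrix. All 9 passed the filter on low counts, which 14058 genes passed in all.

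TREM2 is a lipid-sensing receptor of the immunoglobulin superfamily that in the brain is made mainly by microglia. It has no signalling motif of its own and pairs in the membrane with DAP12 (Tyrobp) or DAP10 (Hcst). When the receptor is engaged, Src family kinases phosphorylate the ITAM of DAP12, SYK docks there and activates PLCG2 and VAV1, while DAP10 recruits PI3K. The lipid phosphatase SHIP1 (Inpp5d) opposes PI3K, and ADAM10 and ADAM17 cut the stalk of the receptor and release its soluble ectodomain. RNA counts measure none of these steps. They give only the transcript levels of the parts.

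Brain microglia were studied in 20 mice, 4 in each of 5 groups, 1 day after a single intravenous dose of 10 mg per kg. All mice, the controls included, were homozygous for a knock-in that makes the apical domain of the mouse transferrin receptor human (hTfR KI HOM in the labels, TfRmu/hu in the study), which the antibody transport vehicle (ATV) binds to cross the blood-brain barrier. WT;TfRmu/hu mice received ATV:ISO, an isotype control, or ATV:4D9, in which the anti-TREM2 antibody 4D9 carries the ATV. AppSAA;TfRmu/hu mice, homozygous for a mutated knock-in of the mouse App gene that drives amyloid deposition, received ATV:ISO, 4D9 without ATV, or ATV:4D9. No WT mice received 4D9. The annotation calls the isotype antibody ATV-DNP02, here taken for ATV:ISO though the deposited texts do not say so. The labels give an Fc with LALA for both ATV antibodies and LALAPG for 4D9, so the transferrin receptor site and the Fc cannot be told apart between ATV:4D9 and 4D9. The study's reporting summary has an entry that names WT and AppSAA together, with males aged 8 months, and an entry for WT;TfRmu/hu mice of mixed sex and 2 to 8 months, without saying which covers the WT mice used here, and the deposited annotation records 1 WT mouse given ATV:ISO, replicate 4, as female. Each replicate number is a pool that held 1 mouse of every group. The texts differ on whether hippocampus was taken with the cortex and on whether CD45 was used beside CD11b in the sort.

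The matrix holds whole counts of unique molecular identifiers (UMIs, each standing for a captured RNA molecule) in 74758 cells, 2193 to 6126 cells and 17150296 to 102446549 UMIs per mouse. The genes of interest held between 51944 UMIs (Syk) and 4579356 UMIs (Tyrobp). Counts were summed over all cells of a mouse. A level is in CPM, counts per 1000000 UMIs of that mouse's total after TMM scaling, and is compared between groups but not between genes, since the libraries read the 3′ ends. A gene was called higher or lower where edgeR's quasi-likelihood test gave an adjusted p under 0.05, with adjustment over all genes tested. Values of mice are given in the order of pools 1 to 4, and means with their SD over 4 mice.

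The cells carried microglial RNA throughout. Sums of marker lists are given in CPM without TMM scaling, unlike the levels of the 9 genes. The 8 microglial markers summed to 12696 to 24814 CPM, highest in WT mice given ATV:ISO (23700 to 24814) and lowest in AppSAA mice given ATV:4D9 (12696 to 14341). They were seen in 74757 cells, and in 13 cells the markers of another type held more UMIs. Tyrobp, Hcst, Syk and Vav1 are also made by lymphocytes, whose markers were low. The 5 T cell markers summed to 0 to 0.731 CPM, the 5 NK cell markers to 1.00 to 2.64 in the ATV:4D9 groups and 4.06 to 9.39 in the others, and the B cell list, most of it Cd79b, to 26.9 to 30.5 in WT mice given ATV:ISO and 15.6 to 25.8 in the others. Other myeloid cells, which a CD11b sort keeps, also make many of the 9 genes. The 4 monocyte markers summed to 9.42 to 12.9 CPM in AppSAA mice given ATV:4D9, 3.88 to 9.94 in AppSAA mice given ATV:ISO, 5.33 to 8.46 with 4D9 and 4.59 to 7.84 in WT mice. The 6 border macrophage markers ranged from 9.97 to 32.7 and the 4 neutrophil markers from 3.98 to 22.4. Cells with a T or NK cell marker held 4.84% (Vav1) to 5.79% (Hcst) of each gene's UMIs, with Trem2 at 5.49%. Of the 3694 NK cell marker UMIs, 2855 were of Klrd1, and the T cell markers held 254 UMIs. The share of all UMIs in such cells is not given here. The 4 endothelial markers summed to 1.30 to 7.03 CPM in WT mice, 27.4 to 44.5 in AppSAA mice given ATV:ISO, 31.2 to 41.7 with 4D9 and 9.69 to 21.6 with ATV:4D9. Most of that sum was a single gene, with 18597 UMIs for Flt1 against 172 for Cldn5, 146 for Ly6c1 and 256 for Itm2a. The 10 genes induced by dissociation summed to 7733 to 10070 in the ATV:4D9 groups and 9197 to 13182 in the others, with 0 to 3 of the 10 called in a comparison. The part of these lists in the results below was not tested. The pools shared 543 barcodes, found in 1089 cells (1.46%).

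The receptor and adaptor genes lie apart in the genome except for a single pair. In mm10 (GRCm38), the build of the files, Trem2 occupies chr17:48346401-48354147 and Inpp5d chr1:87620312-87720507, both on the plus strand. Tyrobp (chr7:30413760-30417585, plus strand) and Hcst (chr7:30417712-30419854, minus strand) run toward each other with 126 bases between their ends. Whether the counting used strand is not given in the sources used here, and the 3′ end of Adam17 (chr12:21323509-21373632, minus strand) overlaps Iah1 on the other strand, so reads of that pair could be mixed. Shown are the 250 bases before the start of Trem2 and Hcst, whose RNA followed the same groups below, and of Inpp5d, which followed others. The sequences are from RefSeq (GRCm38.p6), in the direction of the gene. Capitals mark AGGAAG or its reverse complement CTTCCT, the purine-rich core bound by ETS factors such as PU.1, searched on both strands.
Trem2, chr17:48346151-48346400: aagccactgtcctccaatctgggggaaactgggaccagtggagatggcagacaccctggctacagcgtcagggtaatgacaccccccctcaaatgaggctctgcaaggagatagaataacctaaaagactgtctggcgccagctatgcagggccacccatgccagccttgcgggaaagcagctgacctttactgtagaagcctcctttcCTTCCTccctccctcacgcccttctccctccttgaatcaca
Hcst, chr7:30419855-30420104: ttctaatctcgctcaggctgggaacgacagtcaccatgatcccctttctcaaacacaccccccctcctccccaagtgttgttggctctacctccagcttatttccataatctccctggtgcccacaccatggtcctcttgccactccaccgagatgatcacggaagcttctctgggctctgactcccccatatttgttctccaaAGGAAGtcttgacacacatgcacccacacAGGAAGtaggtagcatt
Inpp5d, chr1:87620062-87620311: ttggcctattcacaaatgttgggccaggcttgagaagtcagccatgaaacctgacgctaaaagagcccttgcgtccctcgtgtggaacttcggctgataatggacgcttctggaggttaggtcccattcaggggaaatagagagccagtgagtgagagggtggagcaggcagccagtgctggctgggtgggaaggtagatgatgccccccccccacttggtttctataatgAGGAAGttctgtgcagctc
The core stood once before Trem2 and once before Inpp5d, and at 2 places before Hcst. Of 32851 RefSeq promoters cut to the same length, 29.5% held it. Among the other genes with an entry, Vav1 and Adam10 held 1 match each, Adam17 held 2 and Syk and Plcg2 none. Of the 9 genes, 8 had an entry. A match is a description of the letters only.

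With the isotype control, AppSAA mice had higher CPM of Trem2, Tyrobp and Hcst than WT mice and lower CPM of Syk, Inpp5d and Adam10. Per cell, the mean of Adam10 differed between these groups by less than the SD. ATV:4D9 lowered the CPM of Syk and Inpp5d in both genotypes, though per cell Inpp5d was higher with ATV:4D9 in 4 of 4 pools of each. In AppSAA mice it also lowered the CPM of Trem2, Tyrobp and Hcst, and raised that of Adam10 and Adam17, neither of which was called without scaling factors (adjusted p = 0.323 and 0.0969). The mean per cell of Tyrobp and Syk in AppSAA mice, and of Syk in WT mice, differed between ATV:4D9 and ATV:ISO by less than the SD. 4D9 without ATV moved none of the 9 genes past the test. In counts summed over the cells of a mouse, fewer cells of a type and less RNA per cell cannot be told apart.

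ATV:4D9 against ATV:ISO in WT mice called 2 of the 9 genes, both lower, where 63.3% of all genes tested were called (30.8% higher and 32.5% lower). In AppSAA mice the same comparison called 7 (5 lower and 2 higher) against 55.1% of all genes, and ATV:4D9 against 4D9 called 7 in the same directions against 54.3% (27.6% higher and 26.7% lower). In the former 27.9% of all genes were higher and 27.1% lower. The comparisons of ATV:4D9 with ATV:ISO and with 4D9 share the ATV:4D9 mice. 4D9 against ATV:ISO called 0 of 9 and 0% of all genes with edgeR, where 79 genes and none of the 9 had an unadjusted p under 0.05, and DESeq2 and limma-voom also called 0 of the 9. AppSAA against WT under ATV:ISO called 6 (3 higher and 3 lower) against 28.2% of all genes (14.4% higher and 13.7% lower), and AppSAA against WT under ATV:4D9 called 2, both higher, against 11.8% (7.84% higher and 3.98% lower). With the pool as a block, ATV:4D9 against ATV:ISO called 6 of the 9 in WT mice (74.6% of all genes in that fit) and 8 in AppSAA mice (70.7%), ATV:4D9 against 4D9 called 8 (69.9%), AppSAA against WT 9 under ATV:ISO (51.0%) and 5 under ATV:4D9 (31.4%), and 4D9 against ATV:ISO none. Without the block, ATV:4D9 in WT mice called 4 without WT ATV:ISO replicate 4, and AppSAA against WT under ATV:4D9 called 1 without any single one of WT ATV:4D9 replicates 2, 3 and 4 and AppSAA ATV:4D9 replicates 2, 3 and 4. The median log2 fold change of the 9 genes for ATV:4D9 against ATV:ISO was -0.06 in WT and -0.35 in AppSAA mice, beside -0.05 and -0.03 over all genes. For ATV:4D9 against 4D9 it was -0.34 (all genes -0.03), and for 4D9 against ATV:ISO 0.02 (all genes 0.00). For AppSAA against WT it was -0.15 under ATV:ISO (all genes -0.06) and 0.05 under ATV:4D9 (all genes -0.01).

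For ATV:4D9 against ATV:ISO the levels of the groups did not overlap for 2 of the 9 genes in WT mice (55.6% of all genes tested) and 5 in AppSAA mice (47.6%). The number was 6 for ATV:4D9 against 4D9 (46.9%) and 0 for 4D9 against ATV:ISO (0.690%). It was 6 for AppSAA against WT under ATV:ISO (27.4%) and 3 under ATV:4D9 (14.9%). Without scaling factors the median of all genes moved by -0.12 for ATV:4D9 in WT mice, by -0.18 for AppSAA against WT under ATV:ISO and by -0.14 under ATV:4D9. The share of calls that were higher then went from 51.2% to 22.3% for AppSAA against WT under ATV:ISO and from 66.3% to 26.5% under ATV:4D9. No called gene among the 9 changed direction in any refit of the summed counts. This does not cover UMIs per cell, given below, where Inpp5d was higher with ATV:4D9. Trem2 and Vav1 were also higher per cell with ATV:4D9 in WT mice. With the block or without scaling factors, their CPM was called lower there.

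**Figure D1:**
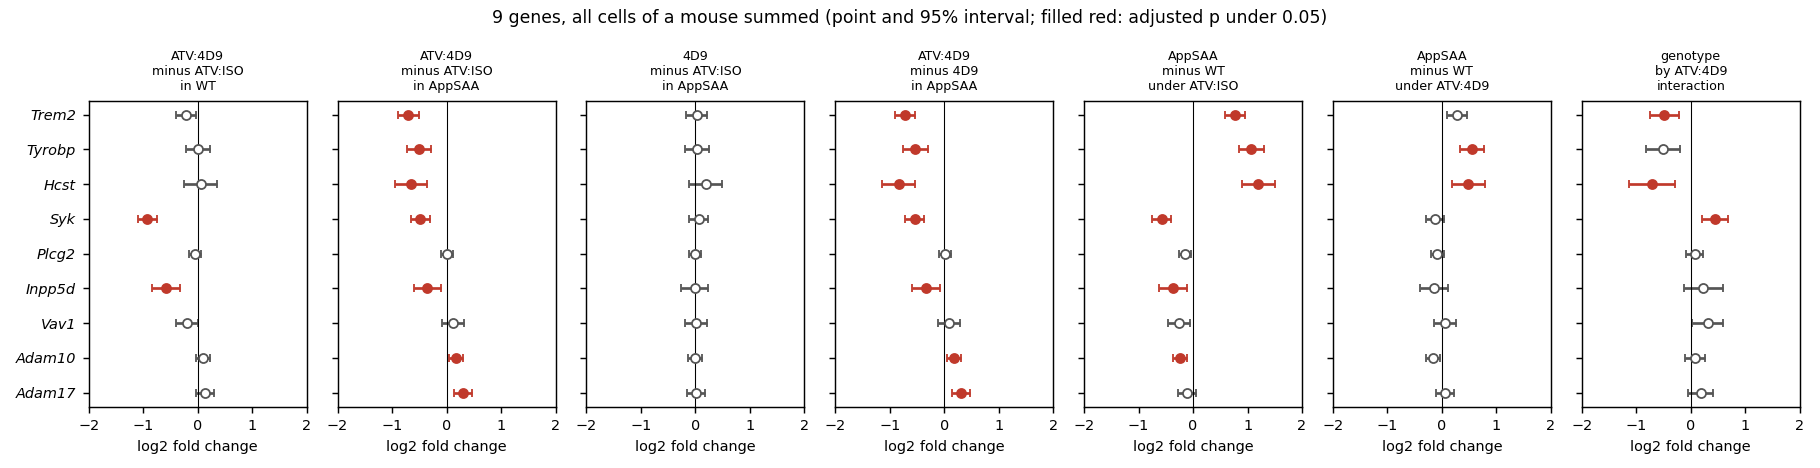
Log2 fold changes of the 9 genes (x axis) in 6 comparisons of groups and in the genotype by ATV:4D9 interaction, with 4 mice per group, 95% intervals and filled red points where the adjusted p was under 0.05. Trem2, Tyrobp and Hcst lie to the right for AppSAA against WT under ATV:ISO (0.76, 1.06 and 1.20) and to the left for ATV:4D9 against ATV:ISO in AppSAA mice (-0.70, -0.50 and -0.65), and no point is filled for 4D9 against ATV:ISO.

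Trem2, the receptor itself, fell into a low and a high set of groups. Its level was 3032, 2812, 2647 and 2497 CPM in WT mice given ATV:ISO and 2651, 2413, 2156 and 2247 in WT mice given ATV:4D9. In AppSAA mice it was 4907, 5240, 4421 and 4078 with ATV:ISO, 5165, 4801, 4596 and 4362 with 4D9 and 2733, 3203, 2869 and 2675 with ATV:4D9. Every AppSAA mouse given ATV:ISO or 4D9 was above every mouse of the other 3 groups, and of those 3 groups the WT ATV:ISO mice overlapped both others, while the ATV:4D9 groups of the genotypes did not overlap each other. The endothelial marker sum given above, most of it Flt1, was high and low in the same groups of AppSAA mice. Trem2 was 1.70-fold as high in AppSAA as in WT mice under ATV:ISO (4662 ± 514 against 2747 ± 229, log2 fold change 0.76, SE 0.09, adjusted p = 3.82e-06). It fell with ATV:4D9 in AppSAA mice (log2 fold change -0.70, SE 0.09, adjusted p = 3.71e-06), to 2870 ± 237, and was lower than with 4D9 by about as much (log2 fold change -0.72, SE 0.09, adjusted p = 2.58e-06). With 4D9 it stood at 4731 ± 340.3 (log2 fold change 0.02, 95% interval -0.16 to 0.21).

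In WT mice the Trem2 difference with ATV:4D9 was smaller and was not called (log2 fold change -0.21, SE 0.09, adjusted p = 0.0534). Blocking on the pool, which pairs the mice, gave adjusted p = 0.00262, limma-voom 0.0442 and the fit without scaling factors 0.000534. Leaving out WT ATV:ISO replicate 4, the mouse recorded as female, gave 0.0358, and leaving out WT ATV:4D9 replicate 1 gave 0.0224. In UMIs per cell, given below, Trem2 was higher with ATV:4D9 in WT mice. The genotype difference under ATV:4D9 (2870 ± 237 against 2367 ± 218) was not called either (log2 fold change 0.28, adjusted p = 0.0611). It was called with the block (adjusted p = 0.00115), with DESeq2 (0.0363), without cells of more than 25000 UMIs (0.0243) and without WT ATV:4D9 replicate 1 (0.0315).

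**Figure D2:**
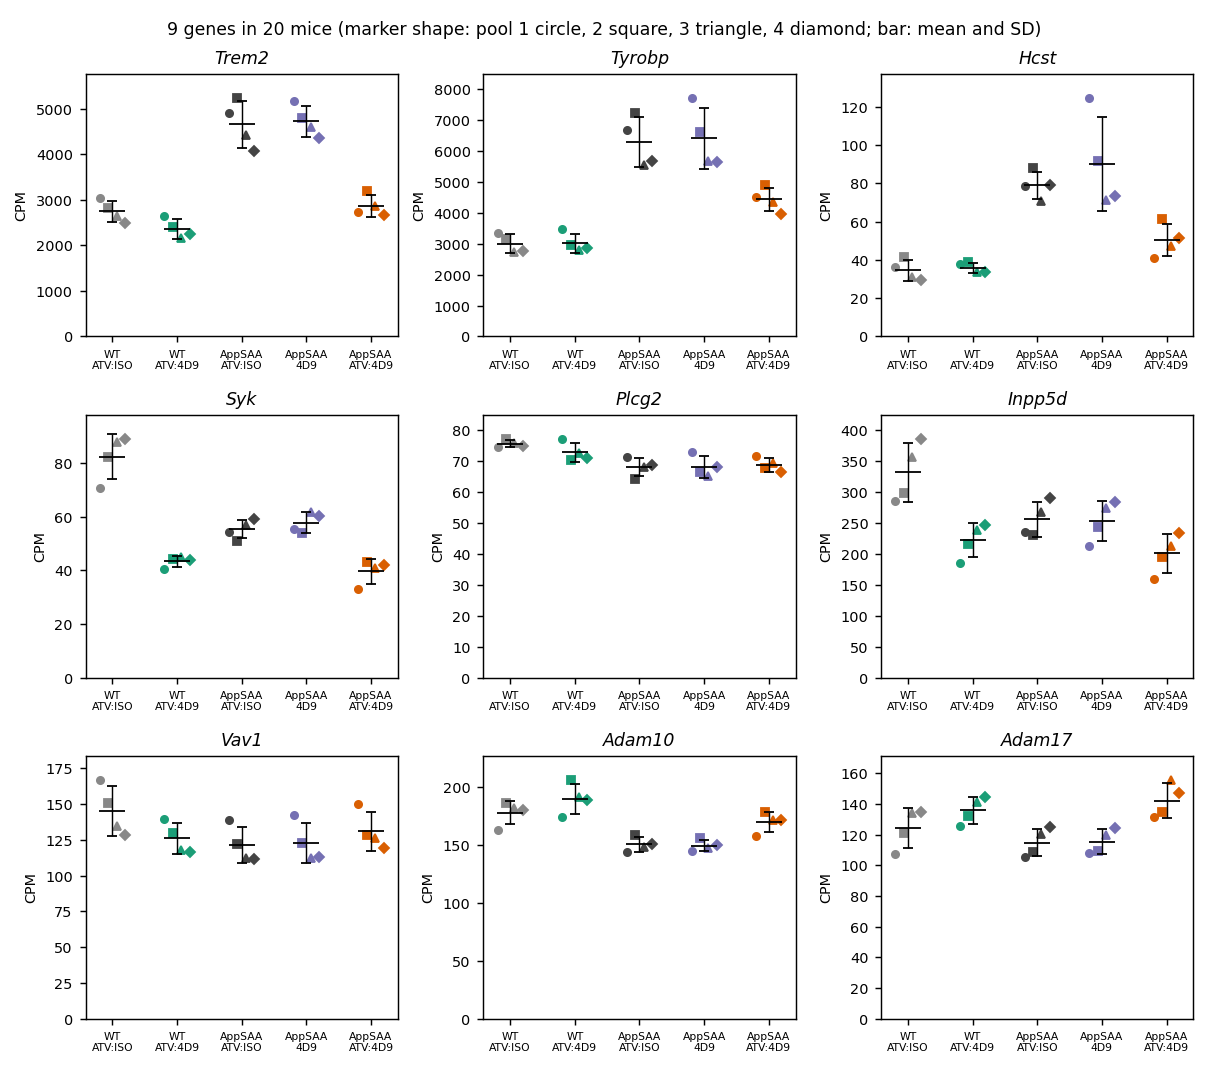
Levels of the 9 genes in CPM (y axis, from 0) in each of 20 mice by group (x axis). Each point is a mouse, its shape gives the pool, and bars give the mean and SD of 4 mice. Trem2, Tyrobp and Hcst are highest in AppSAA mice given ATV:ISO or 4D9, and Syk is highest in WT mice given ATV:ISO (82.6 ± 8.28).

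The adaptor genes were highest in the same groups as Trem2 and differed between genotypes under both treatments. Tyrobp, the gene of the ITAM adaptor DAP12, stood at 3350, 3166, 2745 and 2758 CPM in WT mice given ATV:ISO and 3469, 2960, 2789 and 2867 in those given ATV:4D9. AppSAA mice had 6668, 7241, 5565 and 5666 with ATV:ISO, 7722, 6611, 5683 and 5646 with 4D9 and 4518, 4899, 4343 and 3977 with ATV:4D9. The 3 tiers did not overlap, with both WT groups lowest, AppSAA mice given ATV:4D9 between, and the other AppSAA mice highest. Tyrobp was 2.09-fold as high in AppSAA as in WT mice under ATV:ISO (log2 fold change 1.06, SE 0.12, adjusted p = 7.15e-07) and higher under ATV:4D9 as well (log2 fold change 0.55, SE 0.12, adjusted p = 0.00244). ATV:4D9 lowered it in AppSAA mice against ATV:ISO (log2 fold change -0.50, SE 0.12, adjusted p = 0.00101) and against 4D9 (log2 fold change -0.53, SE 0.12, adjusted p = 0.000623). In WT mice the groups were equal within their spread (log2 fold change 0.01, 95% interval -0.22 to 0.23).

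Hcst, the gene of DAP10, which couples receptors to PI3K, followed Tyrobp. It stood at 36.2, 41.5, 30.8 and 29.6 CPM in WT mice given ATV:ISO and 37.7, 38.6, 33.9 and 33.5 in those given ATV:4D9. In AppSAA mice it stood at 78.6, 87.9, 70.7 and 79.1 with ATV:ISO, 125, 91.6, 71.0 and 73.3 with 4D9 and 41.0, 61.3, 47.5 and 51.5 with ATV:4D9. The AppSAA mice given ATV:ISO or 4D9 were again above all others, AppSAA mice given ATV:4D9 were above WT mice given ATV:4D9, and a single WT ATV:ISO mouse reached into the range of the former. The 4D9 group was widened by its mouse of pool 1. Hcst was 2.29-fold as high in AppSAA as in WT mice under ATV:ISO (log2 fold change 1.20, SE 0.16, adjusted p = 6.71e-06), the largest genotype difference among the 9 genes. It fell with ATV:4D9 in AppSAA mice against ATV:ISO (log2 fold change -0.65, SE 0.15, adjusted p = 0.00119) and against 4D9 (log2 fold change -0.84, SE 0.15, adjusted p = 0.000113). 4D9 against ATV:ISO gave 0.19 with a 95% interval of -0.11 to 0.48, the widest of the 9 genes. The genotype difference under ATV:4D9 (log2 fold change 0.49, SE 0.15, adjusted p = 0.0413) was called with all mice. It was lost without scaling factors (adjusted p = 0.0806) and without any single one of 7 of the 8 mice, AppSAA ATV:4D9 replicates 2, 3 and 4 and each WT ATV:4D9 mouse (adjusted p = 0.0588 to 0.149).

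Syk, the kinase that docks on phosphorylated ITAMs, ran the other way and was highest in WT mice given ATV:ISO, at 71.0, 82.3, 87.9 and 89.1 CPM. It stood at 40.5, 44.4, 45.1 and 43.9 in WT mice given ATV:4D9. Among AppSAA mice it was 54.3, 51.2, 57.1 and 59.2 with ATV:ISO, 55.4, 54.0, 61.9 and 60.4 with 4D9 and 32.9, 43.3, 40.8 and 42.0 with ATV:4D9. The WT ATV:ISO mice were above all others, both ATV:4D9 groups were below all others and overlapped each other, and the remaining AppSAA groups lay between. ATV:4D9 lowered Syk in WT mice (log2 fold change -0.93, SE 0.09, adjusted p = 1.87e-08), to 0.526 of the ATV:ISO level, and in AppSAA mice (log2 fold change -0.48, SE 0.09, adjusted p = 0.000110). It was lower with ATV:4D9 than with 4D9 (log2 fold change -0.54, SE 0.09, adjusted p = 3.01e-05) and lower in AppSAA than in WT mice under ATV:ISO (log2 fold change -0.57, SE 0.09, adjusted p = 4.31e-05). Under ATV:4D9 the genotypes gave -0.13 (95% interval -0.30 to 0.04, adjusted p = 0.429). The 4 calls held in every other fit of these counts. In UMIs per cell the log2 ratio of ATV:4D9 to ATV:ISO was -0.09 in WT and 0.01 in AppSAA mice. The microglial marker sum given above was highest and lowest in the same groups.

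Inpp5d, whose product SHIP1 dampens PI3K signalling, followed Syk with more spread between pools. Its level was 284, 298, 357 and 385 CPM in WT mice given ATV:ISO and 186, 215, 239 and 246 in those given ATV:4D9. In AppSAA mice it was 235, 230.1, 268 and 290.3 with ATV:ISO, 212, 243, 274 and 283 with 4D9 and 159, 194, 213 and 234 with ATV:4D9. Pools 3 and 4 were above pools 1 and 2 in all 5 groups, and only the WT groups did not overlap between treatments. Inpp5d fell with ATV:4D9 in WT mice (log2 fold change -0.58, SE 0.13, adjusted p = 0.000582) and in AppSAA mice (log2 fold change -0.35, SE 0.13, adjusted p = 0.0257), was lower with ATV:4D9 than with 4D9 (log2 fold change -0.34, SE 0.13, adjusted p = 0.0325) and lower in AppSAA than in WT mice under ATV:ISO (log2 fold change -0.37, SE 0.13, adjusted p = 0.0352). In UMIs per cell, given below, the direction was the opposite in 4 of 4 pools of each genotype. The call against ATV:ISO in AppSAA mice was lost without AppSAA ATV:4D9 replicate 1 or 2 or AppSAA ATV:ISO replicate 3 or 4 (adjusted p = 0.0544 to 0.104). The call against 4D9 was lost without AppSAA ATV:4D9 replicate 1 or 2 or AppSAA 4D9 replicate 3 or 4 (adjusted p = 0.0661 to 0.127). The genotype call was lost without AppSAA ATV:ISO replicate 1, 2 or 3 or WT ATV:ISO replicate 3 or 4 (adjusted p = 0.0508 to 0.132). The last 2 calls were also lost without cells of more than 25000 UMIs (adjusted p = 0.0560 and 0.0854). All 3 held with the pool as a block, which also called the genotype difference under ATV:4D9 (log2 fold change -0.15, adjusted p = 0.0124, against 0.592 without it).

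Plcg2, the phospholipase that turns SYK activity into calcium release, differed least between groups, with no log2 fold change beyond -0.15. Its level was 74.6, 77.2, 75.9 and 75.0 CPM in WT mice given ATV:ISO, 77.1, 70.4, 72.7 and 71.0 in WT mice given ATV:4D9 and 71.3, 64.1, 68.2 and 68.8 in AppSAA mice given ATV:ISO. The ranges of neighbouring groups overlapped throughout, and no comparison was called. Under ATV:ISO, every AppSAA mouse was still below every WT mouse, in a comparison where 27.4% of all genes did not overlap. With 4D9 the mice ran 73.0, 66.4, 65.1 and 68.0 and with ATV:4D9 in AppSAA mice 71.7, 67.9, 69.2 and 66.4. ATV:4D9 gave -0.06 in WT mice (95% interval -0.17 to 0.06) and 0.01 in AppSAA mice (-0.10 to 0.13). The genotype difference under ATV:ISO came closest (log2 fold change -0.15, SE 0.06, adjusted p = 0.0516), and was called with the pool block (adjusted p = 0.00198), with limma-voom (0.0448), without scaling factors (log2 fold change -0.34, 0.000112) and without AppSAA ATV:ISO replicate 1 (0.0498).

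Vav1, a guanine nucleotide exchange factor for Rac that SYK activates, was called in no comparison and varied with the pool. It ran 167, 151, 135 and 128 CPM in WT mice given ATV:ISO, 139.5, 129.7, 118 and 117 in WT mice given ATV:4D9, 139, 122, 112 and 112 in AppSAA mice given ATV:ISO and 150.1, 128, 126 and 119 in AppSAA mice given ATV:4D9. The mouse of pool 1 was highest in every group. ATV:4D9 gave -0.20 in WT mice (adjusted p = 0.0903) and 0.11 in AppSAA mice (0.373), and AppSAA against WT under ATV:ISO gave -0.26 (0.0642). With the pool as a block these passed the test (adjusted p = 1.63e-05, 0.00438 and 2.88e-06), as did ATV:4D9 against 4D9 (log2 fold change 0.09, adjusted p = 0.0139). Without scaling factors ATV:4D9 in WT mice and genotype under ATV:ISO were called as well (0.000390 and 3.85e-05). Without the block, leaving out WT ATV:ISO replicate 4 gave calls for ATV:4D9 in WT mice (0.0490) and for genotype under ATV:ISO (0.0428), and leaving out AppSAA ATV:ISO replicate 1 for the latter (0.0302). In UMIs per cell, Vav1 was 1.38 ± 0.0124 in WT mice given ATV:ISO and 2.15 ± 0.0891 with ATV:4D9. It was higher with ATV:4D9 in 4 of 4 pools of WT mice, where its CPM was lower.

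The sheddase genes rose with ATV:4D9 in AppSAA mice, by less than the receptor and adaptor genes fell. Adam17, the inducible sheddase, was 106, 109, 120.2 and 125 CPM in AppSAA mice given ATV:ISO, 108, 109, 119.9 and 124 with 4D9 and 131, 135, 156 and 147 with ATV:4D9. Every AppSAA mouse given ATV:4D9 was above every AppSAA mouse of the other groups. It rose 1.24-fold against ATV:ISO (log2 fold change 0.31, SE 0.08, adjusted p = 0.00427) and as much against 4D9 (log2 fold change 0.30, SE 0.08, adjusted p = 0.00506). In WT mice it was 108, 121, 134 and 135 with ATV:ISO and 126, 132, 142 and 145 with ATV:4D9, groups that overlapped (log2 fold change 0.13, SE 0.08, adjusted p = 0.190), and was called with the block (adjusted p = 0.00172). With the block the genotype difference under ATV:ISO was called too (log2 fold change -0.11, adjusted p = 0.0101). In UMIs per cell Adam17 was instead higher in AppSAA than in WT mice under ATV:ISO in 4 of 4 pools.

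Adam10, the constitutive sheddase, was 143, 158, 148 and 151 CPM in AppSAA mice given ATV:ISO, 145, 156, 147 and 149.7 with 4D9 and 157, 178, 171 and 171 with ATV:4D9. It was 163, 186, 182 and 179.9 in WT mice given ATV:ISO and 174, 206, 191 and 188 in those given ATV:4D9. The order was AppSAA mice without ATV:4D9 lowest and WT mice given ATV:4D9 highest, with overlap between every neighbouring pair. Adam10 was lower in AppSAA than in WT mice under ATV:ISO (log2 fold change -0.24, SE 0.07, adjusted p = 0.00830). That call was lost without the filter on low counts (adjusted p = 0.0583). In UMIs per cell Adam10 was 1.69 ± 0.218 in these AppSAA mice and 1.71 ± 0.270 in these WT mice. Its CPM rose with ATV:4D9 in AppSAA mice (log2 fold change 0.17, SE 0.06, adjusted p = 0.0295), also against 4D9 (log2 fold change 0.18, SE 0.07, adjusted p = 0.0233). Neither rise was called without scaling factors (adjusted p = 0.323 and 0.249), nor were those of Adam17 (0.0969 and 0.0934). The rise of Adam10 against ATV:ISO was lost without cells of more than 25000 UMIs (0.0687) and without AppSAA ATV:ISO replicate 1, 3 or 4 or AppSAA ATV:4D9 replicate 2 or 3 (adjusted p = 0.0526 to 0.0824), and the rise against 4D9 without AppSAA 4D9 replicate 1 or 3 or AppSAA ATV:4D9 replicate 2 (0.0540 to 0.0670). In WT mice ATV:4D9 gave 0.10 (adjusted p = 0.208, 0.00946 with the block), and genotype under ATV:4D9 gave -0.16 (0.114, 0.000463 with the block).

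Whether ATV:4D9 acted differently in the 2 genotypes was tested as an interaction, which called 3 of the 9 genes against 9.14% of all genes (3.79% higher and 5.35% lower). The effect of ATV:4D9 was more negative in AppSAA than in WT mice for Trem2 (difference of log2 fold changes -0.48, SE 0.13, adjusted p = 0.0254) and Hcst (-0.71, SE 0.22, adjusted p = 0.0437), and less negative for Syk (0.44, SE 0.12, adjusted p = 0.0268). Tyrobp gave -0.51 (adjusted p = 0.0538). With the pool block 7 were called (30.5% of all genes), the additional ones being Tyrobp (adjusted p = 0.000310), Inpp5d (0.0115), Vav1 (6.15e-05) and Adam17 (0.00918). Without the block none of the 9 was called when WT ATV:ISO replicate 3 or 4, WT ATV:4D9 replicate 1 or AppSAA ATV:ISO replicate 2 was left out, or when the cells with more than 25000 UMIs were, and 1 was called without AppSAA ATV:4D9 replicate 3. Over these and the other mice left out, the interaction stayed between -0.54 and -0.43 for Trem2, -0.82 and -0.63 for Hcst, and 0.37 and 0.52 for Syk. All genotype and ATV:4D9 comparisons share groups with it.

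CPM values are relative to the other RNA of the cell, and cells given ATV:4D9 held more UMIs. The mean was 8612 UMIs per cell in WT mice given ATV:ISO and 16780 with ATV:4D9, and 11520, 11926 and 17116 in AppSAA mice given ATV:ISO, 4D9 and ATV:4D9. RNA content and capture cannot be told apart. UMIs per cell give a second reading of the same counts. Trem2 stood at 26.1 ± 1.11 UMIs per cell in WT mice given ATV:ISO and 40.4 ± 2.26 with ATV:4D9. AppSAA mice had 52.1 ± 3.56 with ATV:ISO, 54.5 ± 6.39 with 4D9 and 45.5 ± 2.54 with ATV:4D9. On this scale Trem2 was higher with ATV:4D9 in WT mice and lower in AppSAA mice, with no overlap of mice in either genotype. Tyrobp went from 28.5 ± 1.01 to 51.6 ± 3.68 UMIs per cell with ATV:4D9 in WT mice, and was 70.2 ± 4.56 and 70.2 ± 1.04 in AppSAA mice, where the means differed by less than the SD.

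Syk was 0.798 ± 0.171 and 0.751 ± 0.112 UMIs per cell in WT mice given ATV:ISO and ATV:4D9, and 0.628 ± 0.109 and 0.633 ± 0.0982 in AppSAA mice. Within pools its count per cell was higher with ATV:4D9 in 1 of 4 pools of WT mice and 2 of 4 of AppSAA mice, where its CPM fell. Inpp5d was 3.22 ± 0.846 and 3.85 ± 0.900 UMIs per cell in WT mice and 2.91 ± 0.653 and 3.21 ± 0.735 in AppSAA mice. The groups overlapped, but within pools it was higher with ATV:4D9 in 4 of 4 pools in both genotypes, by 0.635 ± 0.128 UMIs per cell in WT and 0.301 ± 0.195 in AppSAA mice (mean and SD of the 4 differences), while its CPM fell. Adam10 and Adam17 gained the most per cell, at 1.91 and 1.96 times the ATV:ISO value in WT mice and 1.59 and 1.74 times in AppSAA mice. All UMIs together were at 1.95 and 1.49 times. The mean per cell was higher with ATV:4D9 than with ATV:ISO for 8 of the 9 genes in WT mice and 7 in AppSAA mice. In a two-sided exact permutation test the smallest p that 4 mice against 4 allow is 0.0286. That p, which means that the groups did not overlap, was reached by 20 of the 54 tests (9 genes, 6 comparisons), and none passed after adjustment over the 54 (smallest adjusted p = 0.0771). For ATV:4D9 against ATV:ISO it was 7 of the 9 in WT mice (64.1% of all genes did not overlap per cell) and 5 in AppSAA mice (53.0%), for ATV:4D9 against 4D9 4 (45.2%) and for 4D9 against ATV:ISO none (0.370%). For AppSAA against WT it was 3 under ATV:ISO (27.7%) and 1 under ATV:4D9 (12.9%). Compared within pools, 8 of the 9 genes were higher per cell with ATV:4D9 in every pool of WT mice (80.1% of all genes were higher and 4.99% lower in every pool), and in AppSAA mice 5 were higher and 2, Trem2 and Hcst, lower in every pool (70.1% and 8.24% of all genes). The smallest p of an exact sign-flip test of 4 differences is 0.125.

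**Figure D3:**
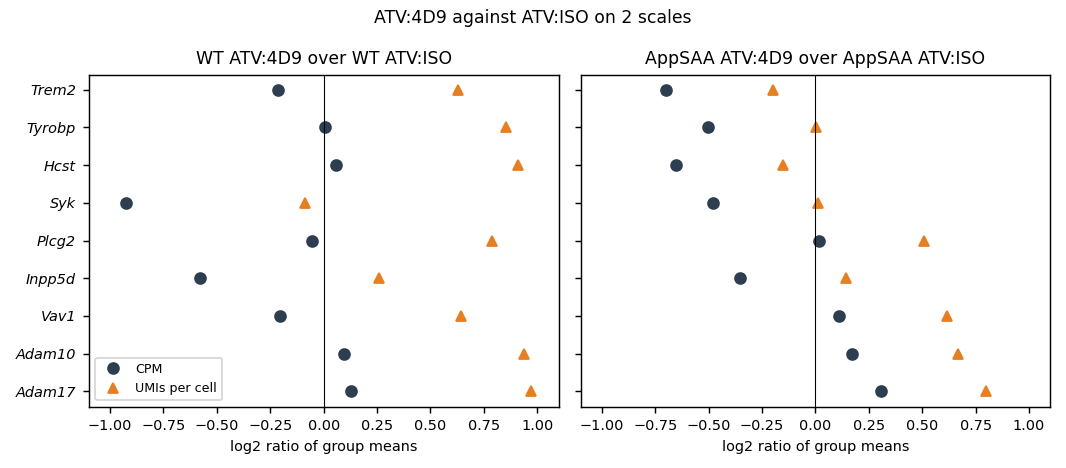
Log2 ratio of the mean with ATV:4D9 to the mean with ATV:ISO (x axis) for the 9 genes in WT mice (left) and AppSAA mice (right), with 4 mice per group. Circles are CPM and triangles UMIs per cell. In AppSAA mice the circle of Tyrobp is at -0.50 and its triangle at 0.00, and those of Syk are at -0.48 and 0.01.

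The deposited annotation sorts the cells into 6 clusters without names, numbered 0 to 5. They were made from the expression of these cells, so levels by cluster are a description and were not tested between clusters. A mouse entered a cluster with 20 or more cells there. Trem2 was highest in cluster 1, at 6300 ± 1222 CPM over 16 mice, and between 2706 and 3077 on average over all groups in the other clusters. Within a mouse, cluster 1 exceeded cluster 0 by a median of 1.29 on the log2 scale for Trem2, 1.70 for Tyrobp and 1.54 for Hcst, in 16 of 16 mice each. The receptor and both adaptors were thus high together. Tyrobp was at 9608 ± 2066 CPM in cluster 1 and 3169 ± 347 in cluster 0, and Hcst at 120.4 ± 32.6 and 41.0 ± 10.1.

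In CPM, the other 6 genes had a median below that of cluster 0 in cluster 1. There the median log2 ratio to cluster 0 was -0.71 for Syk, -0.67 for Inpp5d and -0.56 for Adam10, below 0 in 16 of 16 mice each, and -0.34, -0.33 and -0.16 for Plcg2, Vav1 and Adam17, which were above cluster 0 in 2, 1 and 2 of the 16 mice. The CPM of Syk and Inpp5d was also below cluster 0 in every mouse in clusters 2, 4 and 5. In AppSAA mice given ATV:ISO, Trem2 averaged 3233, 3393 and 3784 CPM in these clusters and 2925 in cluster 0. Syk stood at 72.7 ± 11.3 CPM in cluster 0 and 70.6 ± 8.56 in cluster 3, and between 40.1 and 46.9 on average in the other 4. Inpp5d split the clusters the same way, with 319 ± 46.1 in cluster 0, 308 ± 45.2 in cluster 3 and at most 229 on average elsewhere. The median UMIs per cell were 7178 and 8877 in clusters 0 and 3 and 14334 to 18033 in clusters 1, 2, 4 and 5, and the part of depth in these levels was not tested. Per cell in AppSAA mice given ATV:ISO, Syk averaged 0.624 UMIs in cluster 0. It averaged 0.560, 0.662, 0.769 and 0.592 in clusters 1, 2, 4 and 5. Inpp5d averaged 2.83 in cluster 0, and 2.66, 3.24, 4.20 and 3.08 in those clusters. In cluster 1 against cluster 0, Plcg2 averaged 0.827 and 0.661, Vav1 1.36 and 1.15, Adam10 1.69 and 1.63 and Adam17 1.49 and 1.09. Most cells of WT mice given ATV:ISO lay in clusters 0 and 3, of AppSAA mice given ATV:ISO or 4D9 in clusters 0, 1 and 3, of WT mice given ATV:4D9 in clusters 2 and 4, and of AppSAA mice given ATV:4D9 in clusters 2, 4 and 5.

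**Figure D4:**
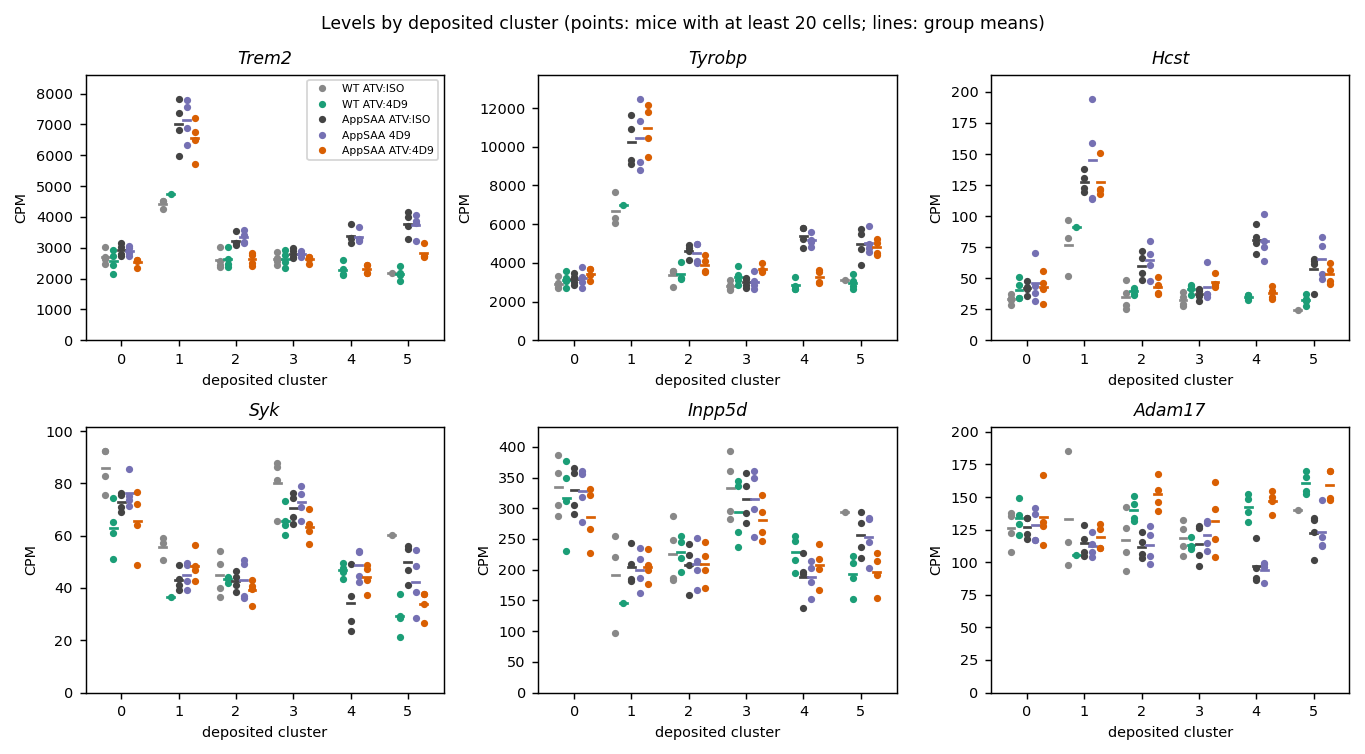
Levels in CPM (y axis, from 0) of 6 of the genes in each deposited cluster (x axis), with a point for each mouse with at least 20 cells there, coloured by group, and lines for group means. Trem2, Tyrobp and Hcst stand out in cluster 1, and Syk and Inpp5d are higher in clusters 0 and 3 than in the others.

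Groups were then compared inside each cluster, in a fit that held the sums of all mice and clusters. Sums of the same mouse in different clusters entered as separate samples and shared an estimate of the spread. In cluster 1, where Trem2 was highest, ATV:4D9 gave no call for it. In AppSAA mice it was 6547 ± 615 against 7009 ± 800.1 CPM with ATV:ISO (log2 fold change -0.10, 95% interval -0.27 to 0.08, adjusted p = 0.886), and Tyrobp was 10961 ± 1238 against 10250 ± 1225 (0.10, -0.13 to 0.32, adjusted p = 0.938). The calls lay in clusters 2, 4 and 5. In cluster 4 Trem2 was 2313 ± 147 against 3393 ± 253 CPM (log2 fold change -0.55, SE 0.09, adjusted p = 6.17e-07), Tyrobp 3275 ± 325 against 5402 ± 503 (-0.72, adjusted p = 4.12e-07) and Hcst 38.0 ± 4.72 against 81.1 ± 10.1 (-1.07, adjusted p = 1.9e-06). Trem2 also fell in cluster 2 (-0.30, adjusted p = 0.0133) and cluster 5 (-0.42, adjusted p = 0.000152), Hcst in cluster 2 (-0.50, adjusted p = 0.0356) and Syk in cluster 5 (-0.55, adjusted p = 0.000909). The clusters were assigned from expression, so each contrast is conditional on that assignment. Groups could also differ in their mix of finer clusters, which was not tested. Among the finer deposited clusters, Trem2 averaged 2169 CPM in cluster 4 (8 mice) and 2652 in cluster 7 (16 mice).

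Across the 6 clusters ATV:4D9 against ATV:ISO in AppSAA mice called 13 of 54 member tests, 4 in cluster 2, 6 in cluster 4 and 3 in cluster 5, where 15.5%, 23.4% and 24.3% of 14522 genes were called. In clusters 0, 1 and 3 it called none of 27 with edgeR (3 at an unadjusted p under 0.05, none with limma-voom), against 0.454%, 1.65% and 2.66% of genes. Against 4D9 it called 11, in clusters 2, 4 and 5 (14.9%, 21.5% and 14.3% of genes), which again share the ATV:4D9 mice, and none of 27 in clusters 0, 1 and 3 (2 at an unadjusted p under 0.05, none with limma-voom, and 0.434%, 1.65% and 2.11% of genes). The receptor and adaptor calls were in the same direction, with Trem2 at -0.34, -0.54 and -0.41, Tyrobp at -0.66 in cluster 4, and Hcst at -0.57 in cluster 2 and -1.08 in cluster 4. 4D9 against ATV:ISO called none of 54 (2 at an unadjusted p under 0.05, none with limma-voom), against 0% of genes in 5 clusters and 0.0207% in cluster 4. The Hcst call in cluster 2 against ATV:ISO was lost without AppSAA ATV:4D9 replicate 1 or AppSAA ATV:ISO replicate 2 or 4, and that against 4D9 without AppSAA ATV:4D9 replicate 1 or AppSAA 4D9 replicate 2 (adjusted p up to 0.214 and 0.0844). The Trem2 calls in clusters 2, 4 and 5 and the Tyrobp and Hcst calls in cluster 4 held in the settings that could test them. With sums of at least 50 cells, cluster 4 could not be tested in either comparison, nor cluster 5 against 4D9. Cluster 4 held 27 to 74 cells of an AppSAA mouse given ATV:ISO and 26 to 54 with 4D9, against 445 to 1438 with ATV:4D9.

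The sheddase genes were higher with ATV:4D9 in the same clusters of AppSAA mice. Adam17 rose in cluster 2 (0.43, adjusted p = 0.00222), cluster 4 (0.56, 8.92e-05) and cluster 5 (0.35, 0.0133), and Adam10 in cluster 2 (0.34, 0.00283) and cluster 4 (0.56, 7.17e-07). Plcg2 rose in cluster 4 (0.27, 0.0378). The median log2 fold change over all genes was 0.12 in cluster 2, 0.13 in cluster 4 and 0.05 in cluster 5, on the same side. RLE factors and separate fits of the clusters ended the calls of Adam17 in clusters 2 and 5, of Adam10 in cluster 2 and of Plcg2 in cluster 4 (adjusted p = 0.0537 to 0.411). Against 4D9, they and the fit without scaling factors ended those of Adam10 in clusters 2 and 4 and of Adam17 in clusters 2 and 5 (0.0648 to 0.556). Without scaling factors the calls of Adam17 in clusters 2 and 5, of Adam10 in cluster 2 and of Plcg2 were lost (adjusted p = 0.275, 0.477, 0.435 and 0.351), while those of Adam10 and Adam17 in cluster 4 held. Leaving out replicate 3 of either group also ended the calls of Adam10 and Adam17 in cluster 2 (adjusted p up to 0.298 and 0.110). The call of Adam17 in cluster 5 was lost without AppSAA ATV:4D9 replicate 3 or 4 or AppSAA ATV:ISO replicate 1 or 3 (up to 0.104), and that of Plcg2 without AppSAA ATV:4D9 replicate 1, 3 or 4 or AppSAA ATV:ISO replicate 1, 2 or 3 (up to 0.687). With the block, Vav1 was called in clusters 4 and 5 (0.21 and 0.25), Inpp5d in cluster 5 (-0.38), and Tyrobp in cluster 2 (-0.25) and, upward, in cluster 3 (0.30).

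In WT mice ATV:4D9 called none of 27 member tests in clusters 0, 2 and 3 (3 at an unadjusted p under 0.05, 1 with limma-voom), against 1.25%, 7.42% and 4.51% of genes. Syk, which fell over all cells, gave -0.42 in cluster 0 (63.0 ± 9.70 against 85.8 ± 8.15 CPM, adjusted p = 0.0776), -0.29 in cluster 3 (adjusted p = 0.165) and -0.07 in cluster 2 (95% interval -0.40 to 0.26). With the block the first and the second were called (adjusted p = 0.00721 and 0.0224). Inpp5d gave -0.08, 0.01 and -0.18 in clusters 0, 2 and 3, none called, beside -0.58 over all cells.

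Of the receptor and adaptor genes, Trem2 and Tyrobp were called between genotypes under ATV:ISO inside cluster 1. Trem2 was 7009 ± 800.1 against 4426 ± 156 CPM in WT mice (log2 fold change 0.66, adjusted p = 1.5e-06) and Tyrobp 10250 ± 1225 against 6687 ± 869 (0.62, adjusted p = 0.000995), with 4 AppSAA and 3 WT mice, of which the smallest held 27 cells. These and Tyrobp in cluster 2 (0.46, adjusted p = 0.0348) were the 3 calls of 36, against 0.213%, 2.07%, 0.551% and 0.110% of genes in clusters 0 to 3. Hcst in cluster 1 was 128 ± 8.36 against 77.0 ± 23.2 CPM and was not called. Only 1 WT mouse given ATV:ISO had 50 cells in cluster 1, so sums of that size could not test it. Among the finer deposited clusters, Trem2 averaged 8252 CPM in cluster 6 (12 mice) and 4963 in cluster 3 (17 mice). The part of a different mix of finer clusters in the genotype difference was not tested. In the coarser cluster 0 Trem2 was 2925 ± 202 in AppSAA and 2712 ± 226 in WT mice. The call of Tyrobp in cluster 2 was lost with 3 other settings and without AppSAA ATV:ISO replicate 2 or 4 or WT ATV:ISO replicate 2, 3 or 4 (adjusted p up to 0.317). Under ATV:4D9, 3 of 45 tests were called, all in cluster 5 (7.57% of genes, and 0.165%, 2.24%, 0.165% and 2.60% in clusters 0, 2, 3 and 4), with Trem2 at 0.39, Tyrobp at 0.69 and Hcst at 0.70 (adjusted p = 0.00149, 6.86e-06 and 0.00324). The Trem2 call there was lost in a separate fit of the cluster (adjusted p = 0.0756).

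Across 27 combinations of a group and a cluster that held 3 or more mice, the genes fell into patterns that can be described by correlation of log2 levels, without a test, since the points share mice and clusters. Tyrobp and Hcst had r = 0.971, Trem2 and Tyrobp 0.950 and Trem2 and Hcst 0.941. Syk and Inpp5d had r = 0.879, and Trem2 and Adam10 -0.79. Among 8028 other genes, the 5 most like Trem2 were Creg1 (r = 0.981), Hexa (0.976), Ctsa (0.971), Dnajb14 (0.966) and 1700003F12Rik (0.965). For Tyrobp they were Glb1 (0.989), Sdf4 (0.980), Tpt1 (0.978), Uqcrh (0.978) and Rpl21 (0.976), and for Hcst Glb1 (0.972), Tyrobp, Hexa (0.965), Serpine2 (0.959) and Fuca1 (0.957). Inpp5d was most like Sall1 (0.978), Pwwp2a (0.9746), Adgrg1 (0.971), Tanc2 (0.970) and Tab2 (0.969), and Syk most like Dip2b (0.971), Cxxc5 (0.960), Mast3 (0.956), 0610040J01Rik (0.956) and Snx18 (0.956). The nearest of the 5 had lower r for Adam10 (St3gal5, 0.933), Adam17 (Rrbp1, 0.915), Vav1 (Arrb2, 0.909) and Plcg2 (Tspan14, 0.842).

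The other genes of the pathway were taken as lists by role and read beside all genes tested, of which 30.8% were higher and 32.5% lower with ATV:4D9 in WT mice (median log2 fold change -0.05), 27.9% and 27.1% in AppSAA mice (-0.03), 14.4% and 13.7% in AppSAA against WT mice under ATV:ISO (-0.06) and 7.84% and 3.98% under ATV:4D9 (-0.01). Of 21 proximal kinases and phosphatases tested, which set and reverse ITAM phosphorylation, ATV:4D9 in WT mice raised 5 and lowered 11 (median log2 fold change -0.28), and in AppSAA mice raised 4 and lowered 10 (-0.21). The Src family kinases divided. Fgr rose in WT mice (1.24, adjusted p = 1.32e-09) and was not called in AppSAA mice (0.18). Src fell in WT mice (-0.93, 5.45e-07) and was not called in AppSAA mice (-0.21), and Fyn fell in AppSAA mice (-0.60, 7.68e-06) and was not called in WT mice (-0.01). Dok3, an adaptor that restrains ITAM signalling, fell in both (-1.21 and -0.79), as did the ubiquitin ligase gene Cbl (-0.83 and -0.57). AppSAA against WT under ATV:ISO had 5 of the list higher and 8 lower, among them Fgr (1.81), Fyn (1.11) and Dok3 (-0.94), and 2 higher and 2 lower under ATV:4D9.

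Of 34 scaffold and second messenger genes, ATV:4D9 raised 3 and lowered 17 in WT mice (median -0.30) and raised 5 and lowered 13 in AppSAA mice (-0.19). The scaffold gene Gab1 (-1.26 and -0.98) and the protein kinase C gene Prkca (-1.23 and -0.94) fell in both genotypes. AppSAA mice had 2 of the list higher and 9 lower than WT mice under ATV:ISO, and 2 higher and 1 lower under ATV:4D9. Of 26 PI3K, AKT and mTOR genes, 5 were higher and 16 lower in WT mice (median -0.28), and 5 and 9 in AppSAA mice (-0.15). The transcription factor genes Foxo3 (-1.02 and -0.75) and Foxo1 (-0.97 and -0.67) and the PI3K subunit gene Pik3cg (-0.89 and -0.71) fell in both, and the PI3K adaptor gene Pik3ap1 fell in WT (-0.18) and rose in AppSAA mice (0.62). AppSAA mice had 3 of these genes higher and 5 lower than WT mice under ATV:ISO, and 2 higher and none lower under ATV:4D9. Of 12 MAP kinase pathway genes, 3 rose and 3 fell in WT mice and 4 rose and 2 fell in AppSAA mice, with medians of 0.05 and 0.06 and with Hras (0.76 and 0.54) up and Mapk14 (-0.56 and -0.31) down. Between genotypes 1 of the 12 was lower under ATV:ISO and none was called by edgeR under ATV:4D9 (0 at an unadjusted p under 0.05).

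Around the sheddases, 23 genes of their trafficking, activation and inhibition were tested. ATV:4D9 raised 5 and lowered 5 in WT mice (median -0.04) and raised 8 and lowered 3 in AppSAA mice (0.03). The metalloproteinase genes Adam15 (0.44 and 0.38) and Adam9 (0.67 and 0.29) rose in both genotypes and Mmp14 in AppSAA mice (0.47, with 0.06 and no call in WT mice). Timp2, a metalloproteinase inhibitor gene, was higher in AppSAA than in WT mice under ATV:ISO (0.74) and fell with ATV:4D9 in both genotypes (WT -0.27, adjusted p = 0.0411, and AppSAA -0.36, 0.0118). Of the 23, 7 were higher and 1 lower in AppSAA than in WT mice under ATV:ISO, and 6 higher and none lower under ATV:4D9.

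Of 22 genes in a list of the TREM family, receptors of ITAM adaptors and related genes, ATV:4D9 raised 9 and lowered 6 in WT mice (median 0.06) and raised 10 and lowered 7 in AppSAA mice (0.15). The activating Fc receptor gene Fcgr3 fell in both (-1.45 and -0.91), as did Siglech (-1.03 and -0.66) and Cd33 (-1.01 and -0.58). Fcgr4 rose in both (0.63 and 1.33), and Fcgr1 rose in AppSAA mice (0.77) and gave 0.05 in WT mice, where it was not called. Clec7a, which encodes the beta-glucan receptor dectin-1, was higher in AppSAA than in WT mice under ATV:ISO (2.87, adjusted p = 1.09e-11) and fell with ATV:4D9 in AppSAA mice (-0.80, 2.84e-05) but rose with it in WT mice (0.42, 0.00752). Treml2, a relative of Trem2 in the same gene cluster, was higher in AppSAA mice under ATV:ISO (0.77) and under ATV:4D9 (1.60). Of the 22, 4 were higher and 3 lower in AppSAA than in WT mice under ATV:ISO, and 8 higher and none lower under ATV:4D9. In none of the 6 lists was a gene called for 4D9 against ATV:ISO with edgeR, as in the matrix as a whole.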

How the data were processed

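The deposited matrix gives UMI counts per gene and cell, made by the authors with Cell Ranger 6.1.1 on mm10 from 10x 3′ libraries of 4 pools with multiplexing tags. The deposited annotation gives each cell's mouse, group and clusters, and the percent of mitochondrial UMIs as the authors computed it, which was not used. Aligner settings and strand are not given in the sources used here. The sums over cells matched the deposited totals in all 74758 cells. No further cells were removed and no doublet caller was run on the filtered matrix.

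Counts were added up for each mouse, and for each cluster in which a mouse had at least 20 cells, filtered with filterByExpr, scaled by TMM and tested with edgeR 4.0.16 in R 4.3.3 (glmQLFit and glmQLFTest, Benjamini-Hochberg over all genes of a comparison, threshold 0.05). All 5 groups shared a fit without a block. Within clusters, all sums of a mouse and cluster shared a fit with a factor of group by cluster. Sums of the same mouse were treated there as separate samples, also in the estimate of the spread. The study's methods use limma-voom, which was run as an alternative (limma 3.58.1) beside DESeq2 1.42.0. Intervals are 1.96 SE either way. UMIs per cell were compared by two-sided exact permutation tests. The fits were first tested on simulated data. Python 3.11.15, pandas 2.3.3, numpy 2.4.6 and matplotlib 3.10.9 were used for sums and plots.

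The replicate number is the pool, which held a mouse of every group per the labels. Deviations from the group means correlated at r = 0.143 to 0.607 within pools (40 pairs) and -0.514 to 0.249 between pools (120 pairs), so the numbers pair the mice.

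The 9 genes and all lists were chosen with earlier results of these data known. Beside the 9 genes, at most 4 called genes of a list were named per comparison, those with the largest changes among genes with a mean of at least 10 CPM, and the genes most like each of the 9 over groups and clusters (Pearson correlation, pseudocount 1). The values of some genes of the lists are not reported here. Alternatives were RLE factors, DESeq2, limma-voom, no filter, the groups of a comparison alone, the pool as a block, leaving out cells over 25000 UMIs or each mouse in turn, other cell minimums, finer clusters and separate fits per cluster. Over all cells, mice were left out only in fits without the block, which do not pair the mice by pool. Fits without scaling factors and the pairing of UMIs per cell by pool were added after the data were seen.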

Additional observations from a re-analysis of the deposited data

Results flagged for a closer look

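The effect of ATV:4D9 differed between WT and AppSAA mice, by edgeR's interaction test at an adjusted p under 0.05, for the genes below, and each value is the effect in AppSAA mice minus that in WT mice on the log2 scale. Of the 9 genes these were Trem2 (-0.48), Hcst (-0.71) and Syk (0.44), whose calls were lost when single mice were left out, as given above. Those fits had no block. With the block and all mice the 3 calls held, and no mouse was left out with the block. Of the pathway lists, 6 of 22 receptor genes and 6 of 21 kinase and phosphatase genes were called, beside 9.14% of all genes tested. The numbers were 5 of 34 for scaffolds and second messengers, 3 of 26 for the PI3K list and 1 of 23 for the sheddase list. Of 12 MAP kinase genes none was called by edgeR (1 at an unadjusted p under 0.05). At most the 4 largest values of a list among genes with a mean of at least 10 CPM are named. Among other receptors those were Clec7a (-1.22), Fcgr1 (0.72), Fcgr4 (0.70) and Treml2 (0.83). Among proximal kinases they included Fgr (-1.07), Fyn (-0.58) and Src (0.71). Among scaffolds and second messengers they were Blnk (0.45), Fyb (0.51), Lat2 (-0.60) and Prkcd (0.51). In the PI3K list they were Pik3ap1 (0.81), Rps6 (-0.54) and Ctnnb1 (-0.31), and around the sheddases Adam9 (-0.38). The value was below 0 for 9 and above 0 for 9 of the 18 genes named here. Of the 45 sets of 4 mice (9 genes in 5 groups), none had a mouse past Dixon's critical value for CPM.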

How the results depend on the processing

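No called value of the 9 genes changed direction in any refit of the summed counts. In UMIs per cell Inpp5d was higher with ATV:4D9, as given above. Some calls made with the block also ran against UMIs per cell. They were Trem2 and Vav1 for ATV:4D9 in WT mice and Adam17 for AppSAA against WT under ATV:ISO, lower in CPM and higher per cell. Over all cells, 447 of 504 values kept their side of the threshold in other settings, 37 became calls and 20 lost theirs. With a mouse left out, the numbers were 514 of 576, 11 and 51. Blocking on the pool gave 6 genes called for ATV:4D9 in WT mice (2 without the block), 5 for AppSAA against WT under ATV:4D9 (2) and 7 for the interaction (3). For every gene added in these comparisons the SE was smaller with the block. For Vav1 in WT mice it was 0.03 with the block and 0.10 without, and the log2 fold change was -0.20 in both. Without scaling factors it was 5 for ATV:4D9 in WT mice and 4 for ATV:4D9 against 4D9 (7 with TMM). DESeq2 gave 4 for AppSAA against WT under ATV:4D9. Without cells over 25000 UMIs that count was also 4, and the interaction called 0. The shares of all genes called in these fits, and in those with a mouse left out, are not given here. Leaving out the mice one at a time, the counts ran from 2 to 4 for ATV:4D9 in WT mice, 5 to 7 in AppSAA mice against ATV:ISO and against 4D9, 0 to 0 for 4D9 against ATV:ISO, 5 to 7 for genotype under ATV:ISO, 1 to 2 under ATV:4D9 and 0 to 4 for the interaction. Within clusters the 30 calls became 15 with sums of at least 50 cells, where 171 of the 270 tests and 14 of the 30 called could be made, 44 with the block, and 25 to 32 with a mouse left out. Of the 30, 21 stayed with RLE factors, 20 with a separate fit for each cluster, 22 without scaling factors and 29 with limma-voom. The block changed no call of the 9 genes other than those given here and above and gains within clusters. In the finer deposited clusters the highest Trem2 level stood 1.61 above cluster 0 on the log2 scale, against 1.29. The exact tests of UMIs per cell gave 0 calls in every setting (paired within pools they cannot go below 0.125), and 20 of 54 reached the smallest p before adjustment. With 4 mice against 4 that p is 0.0286, so a call needs most of the 54 tests to reach it. The 0 calls therefore do not show that levels per cell were equal. Syk and Hcst rest on the fewest UMIs of the 9 genes, and 4 mice per group limit every test.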
